A study of Mus musculus with 22 samples.

Results

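Tumour necrosis factor (TNF) is a cytokine that microglia release early in an inflammatory response. It binds the receptors encoded by Tnfrsf1a (TNFR1, present on most cells) and Tnfrsf1b (TNFR2, mostly on immune and endothelial cells), and both receptors can lead to release of NF-kappaB dimers into the nucleus. In the canonical branch the dimers hold RelA and p50, and in the non-canonical branch RelB and p52, the product of Nfkb2. NF-kappaB raises transcription of Tnf itself, of further subunits and of inhibitors such as Tnfaip3 (A20), so many genes of the pathway are also its targets.

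The levels of 10 genes of this pathway, chosen by name, were examined. They were the ligand Tnf, the receptors Tnfrsf1a and Tnfrsf1b, the subunits Nfkb1, Nfkb2, Rela and Relb, the nuclear IkappaB protein Bcl3, the inhibitor Tnfaip3 and the TNF-induced gene Tnfaip2. Probes naming a member were found for 9 of the 10 genes, and they numbered 30 among the 33026 probes that named 1 gene, which covered 22485 genes. Nfkb1 was not analysed here. Tnf had 10 probes, Tnfrsf1a 11, Relb and Tnfaip2 2 each and the others 1. Each gene was read from its brightest probe, by the mean of all 22 samples.

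RNA came from cells sorted from mouse cortex by flow cytometry. The 4 groups were astrocytes of APP/PS1 mice (n = 4), astrocytes of WT mice (n = 4), microglia of APP/PS1 mice (n = 7) and microglia of WT mice (n = 7). APP/PS1 stands for APPswe/PS1dE9, a transgenic strain widely used as a model of amyloid deposition, and the WT mice were littermates. All mice were C57BL/6 and aged 15 to 18 months, so every sample came from aged cortex. Astrocytes were collected as GLT1-positive, CD11b-negative cells and microglia as cells positive for CD11b and CD45, in both cases after Percoll, myelin removal, papain digestion at 37 °C and exclusion of dead cells. The labels do not give the transgenes' promoter or say whether cells of several mice were pooled. Both genotypes of one cell type and replicate number shared each 2-colour array, which gave 11 within-array differences, numbered here by replicate.

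Slc1a2 and Cx3cr1 separated the sorted populations, but the astrocyte samples also held bright endothelial and mural genes. The endothelial gene Flt1 averaged 16.37 ± 0.37 in APP/PS1 astrocytes and 15.47 ± 0.36 in WT astrocytes (log2, SD). The mural gene Acta2 averaged 17.35 ± 0.77 and 15.52 ± 1.34 in these groups. Slc1a2, which encodes GLT1, averaged 14.79 ± 0.74 in APP/PS1 astrocytes and 16.02 ± 0.22 in WT astrocytes (log2, SD, n = 4 each), against 5.94 ± 0.56 in APP/PS1 microglia and 7.01 ± 0.60 in WT microglia (SD, n = 7 each). Cx3cr1, a microglial chemokine receptor, averaged 9.98 ± 1.33 in APP/PS1 astrocytes and 7.94 ± 1.37 in WT astrocytes, against 16.16 ± 0.28 in APP/PS1 microglia and 17.41 ± 0.30 in WT microglia. The brightest Itgam probe did not separate the populations to this degree, at 12.90 ± 0.81 in APP/PS1 astrocytes and 13.50 ± 0.70 in WT astrocytes, against 13.45 ± 0.18 in APP/PS1 microglia and 13.95 ± 0.15 in WT microglia, although Itgam encodes CD11b. WT microglia replicate 3 stood apart by the neutrophil gene S100a9, at 17.72 with a group median of 10.95. On 3 arrays (microglia replicate 1 and astrocyte replicates 1 and 3) the APP/PS1 sample had the Y-linked gene Eif2s3y at 9.63 or above, while its WT partner was at 4.58 or below.

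Promoter windows were available in RefSeq (GRCm38.p6) for 8 members, with 11 windows in all, each of 250 bases before and 50 after an annotated start. The kappaB consensus, the element that NF-kappaB dimers bind, was searched on both strands and occurred in 4.51% of all 32851 windows. It occurred in 5 windows of 3 members, Nfkb2, Bcl3 and Tnfaip3. These 3 genes changed with genotype in astrocytes, microglia or both, but so did Tnf, Tnfrsf1b and Tnfaip2, which had no match. The sequences of the 3 genes are given because a window of each held a match. The Tnf sequence is set beside them because Tnf had the largest difference between cell types. Each is written 5′ to 3′ on the gene's strand, and capitals mark the bases that match the consensus. The first 3 lines give the 250 bases before the start, at chr19:46304487-46304736 (plus strand) for Nfkb2, chr10:19015411-19015660 (minus strand) for Tnfaip3 and chr17:35202008-35202257 (minus strand) for Tnf. The Bcl3 line gives 30 bases around its match, at chr7:19822734-19822763 (minus strand).
Nfkb2: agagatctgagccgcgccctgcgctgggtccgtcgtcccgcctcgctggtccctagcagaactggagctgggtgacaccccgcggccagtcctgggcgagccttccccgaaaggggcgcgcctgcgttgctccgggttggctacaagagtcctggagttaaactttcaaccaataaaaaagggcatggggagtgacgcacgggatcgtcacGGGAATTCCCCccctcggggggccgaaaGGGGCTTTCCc
Tnfaip3: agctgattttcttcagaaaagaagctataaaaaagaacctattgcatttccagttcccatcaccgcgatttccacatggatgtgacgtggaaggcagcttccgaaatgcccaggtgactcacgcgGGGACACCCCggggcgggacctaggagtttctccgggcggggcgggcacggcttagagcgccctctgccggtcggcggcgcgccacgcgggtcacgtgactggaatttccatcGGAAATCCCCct
Tnf: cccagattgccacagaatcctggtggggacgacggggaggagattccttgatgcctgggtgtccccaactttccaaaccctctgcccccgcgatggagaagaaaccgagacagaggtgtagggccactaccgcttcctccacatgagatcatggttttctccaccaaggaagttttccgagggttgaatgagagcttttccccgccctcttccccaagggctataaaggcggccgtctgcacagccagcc
Bcl3: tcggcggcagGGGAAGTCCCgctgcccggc
In the Nfkb2 window shown, a pair of overlapping matches began 39 and 38 bases before its start and another began 11 bases before it. In the Tnfaip3 window shown the matches began 125 and 12 bases before the start, and in Bcl3 the match began 3 bases after it. Nfkb2 and Tnfaip3 also had windows at other annotated starts. In those of Nfkb2, matches began 236 and 225 bases before and 11 bases after the start. In that of Tnfaip3 there was no match. No match was found in the windows of Tnf, Tnfaip2, Tnfrsf1a, Tnfrsf1b and Rela, which says only that these letters are not in these windows. Relb was matched to no window.

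The first comparison asked how the genes were distributed between the cell types. All 9 measured members were lower in WT astrocytes than in WT microglia (limma, adjusted p under 0.05 after Benjamini-Hochberg adjustment over all genes), where 53.3% of all genes were called and 18% were called lower. The median difference of the members was -3.07 on the log2 scale, against 0.34 over all genes. At an unadjusted p under 0.05, 0 members were higher in WT astrocytes. The astrocyte arrays had a slide to themselves, so a difference between slides and one between cell types cannot be told apart.

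Tnf had the widest gap. It was listed at 6.27, 4.52, 3.01 and 6.28 in WT astrocytes (log2), while WT microglia ran from 14.15 to 15.13 with a median of 14.65. The difference was -9.62 ± 0.57 (SE, limma adjusted p = 9.9e-12), and the lowest astrocyte values lie in the dim range of the array. Tnfaip3, the ubiquitin-editing enzyme A20 that shuts down signalling from TNFR1, was lower in WT astrocytes by -6.19 ± 0.36 (adjusted p = 7.3e-12). Tnfaip2, a gene named for its induction by TNF in endothelial cells, followed at -4.75 ± 0.29 (adjusted p = 1.4e-11) and Tnfrsf1b at -4.46 ± 0.22 (adjusted p = 4.7e-13).

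The transcription factor genes were separated less. Bcl3, an IkappaB family protein that works with p50 and p52 dimers in the nucleus, was lower in WT astrocytes by -3.07 ± 0.31, Nfkb2 by -2.49 ± 0.21 and Relb by -2.22 ± 0.21. Tnfrsf1a and Rela had the smallest differences between cell types. Tnfrsf1a lay between 11.86 and 11.88 in the 4 WT astrocyte samples and between 12.24 and 12.85 in WT microglia, a difference of -0.76 ± 0.12 (limma adjusted p = 1.2e-05). Rela differed by -0.38 ± 0.15 (adjusted p = 0.044), its WT ranges overlapped (13.43 to 13.73 in astrocytes, 13.61 to 14.20 in microglia), and the call was lost under 11 of 19 alternative settings, with adjusted p up to 0.28.

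The order of the 4 groups was the same for Tnf, Tnfaip3, Bcl3, Nfkb2 and Relb, with WT astrocytes lowest, APP/PS1 astrocytes above them, and APP/PS1 and WT microglia above both. For every measured member but Rela, the highest astrocyte sample of either genotype lay below the lowest microglia sample. The share of all genes separated in this way was not counted, and 18% of all genes were called lower in WT astrocytes. APP/PS1 and WT microglia overlapped for every member but Tnfaip2. APP/PS1 and WT astrocytes overlapped for Tnfrsf1b, Nfkb2, Rela, Relb and Tnfaip2.

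**Figure D1:**
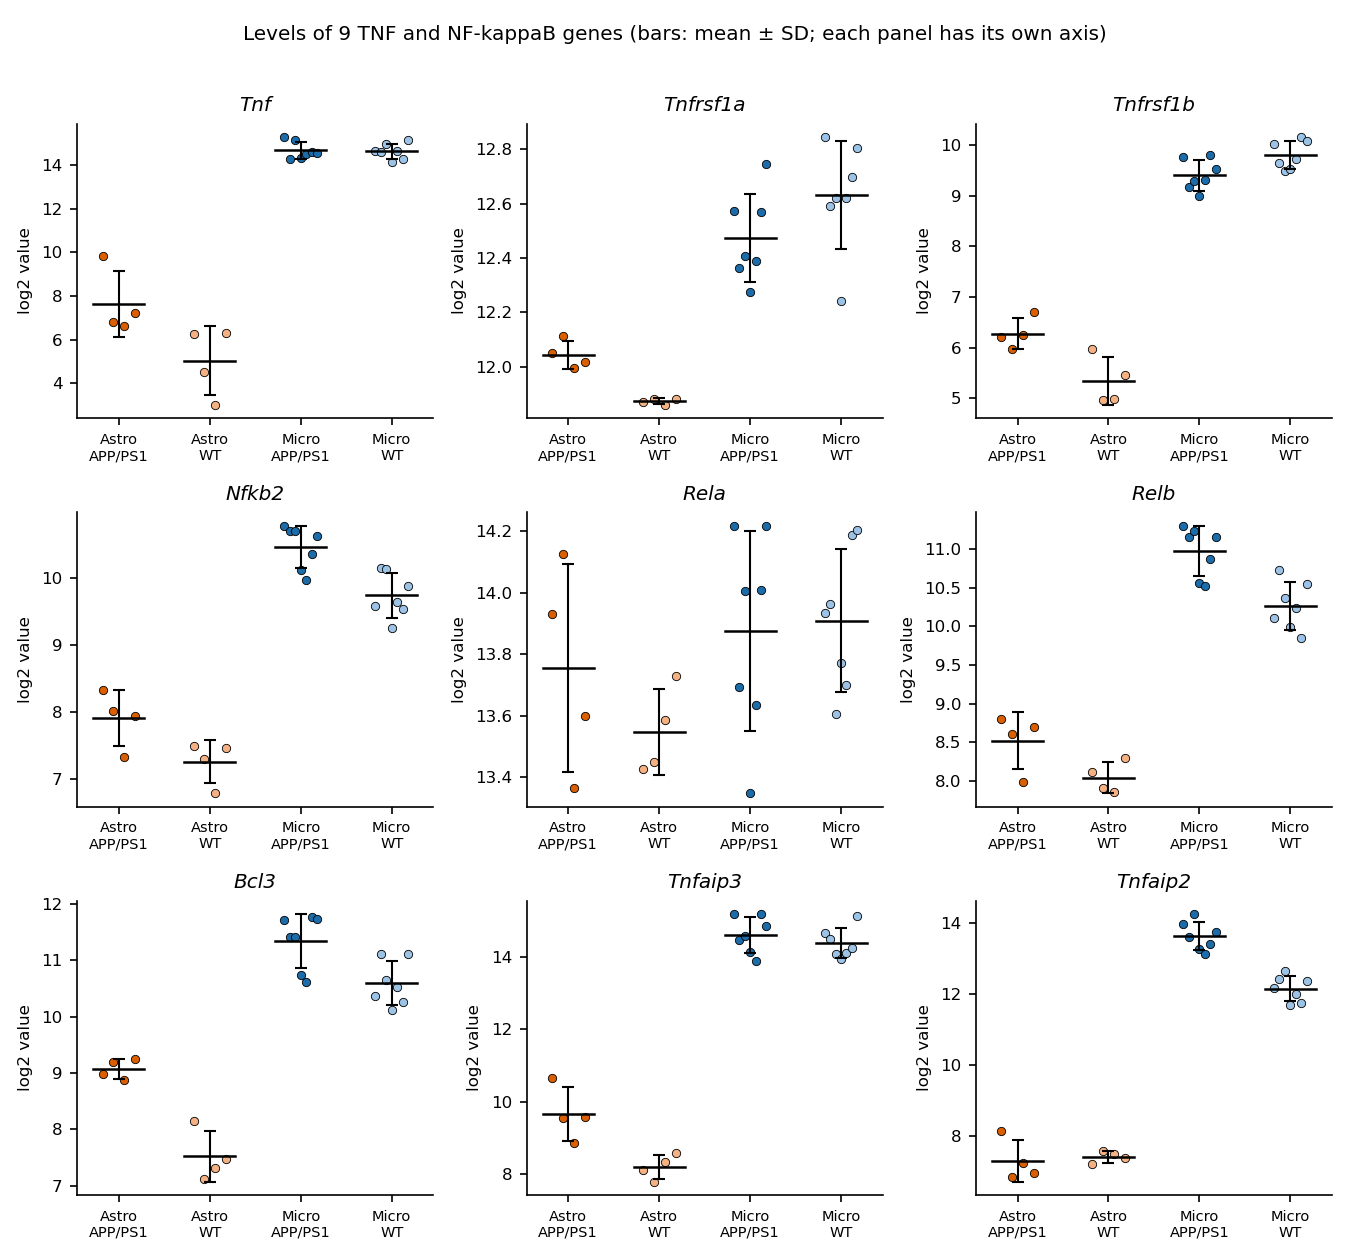
Levels of the 9 measured genes in each sample (points, log2 value, a separate axis per gene), grouped from left to right as APP/PS1 astrocytes, WT astrocytes, APP/PS1 microglia and WT microglia, with the mean and SD in black (n = 4, 4, 7 and 7). Tnf ran from 6.64 to 9.84 in APP/PS1 astrocytes and from 3.01 to 6.28 in WT astrocytes, and lay above 14 in all 14 microglia samples.

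The second comparison asked how the genes differed between APP/PS1 and WT astrocytes on the same arrays. Of the 9 measured members 6 were higher in APP/PS1 astrocytes, namely Tnf, Bcl3, Tnfaip3, Tnfrsf1b, Nfkb2 and Relb, and 3 did not pass the test. In this comparison 33.5% of all genes were called and 15.4% were called higher. The median effect of the members was 0.65, against -0.07 over all genes tested. At an unadjusted p under 0.05, 7 members were higher and 0 lower by limma, the tool used throughout.

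Tnf stood at 9.84, 6.79, 6.64 and 7.24 in the 4 APP/PS1 astrocyte samples, against 6.27, 4.52, 3.01 and 6.28 in the WT samples of the same arrays. Each APP/PS1 sample was above each WT sample, as was the case for 6.37% of genes measured in all 8 samples. The within-array differences were 3.57, 2.27, 3.63 and 0.95, and the effect was 2.61 ± 0.39 (SE, limma adjusted p = 8.2e-04). The WT values of 3.01 and 4.52 lie in the dim range, where probes blank on some arrays had a median of 3.35 and all samples a median near 6.24, so the size is not given as a fold. All 10 Tnf probes were called higher, with effects from 2.08 to 2.67. Whether these probes repeat one sequence is not given in the sources used here, so they are not counted as independent measurements. Within a sample the probes spanned a median of 0.52 log2 units and at most 2.26, the spread being wide where the level was low. With astrocytes fitted on their own the same effect had an adjusted p of 0.055, and on the arrays whose partners matched in Eif2s3y (replicates 2 and 4) it was 1.61 (adjusted p = 0.019).

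Bcl3 also rose. It was at 8.98, 9.20, 8.87 and 9.25 in APP/PS1 astrocytes, against 8.16, 7.13, 7.32 and 7.48 in WT astrocytes. The groups did not overlap, and the effect was 1.55 ± 0.25 (limma adjusted p = 0.0013, 2.94-fold). Leaving out single arrays gave 1.33 to 1.81 and kept the call each time.

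Tnfaip3 was at 10.67, 9.54, 8.85 and 9.58 in APP/PS1 astrocytes, against 8.13, 7.79, 8.34 and 8.57 in WT astrocytes, again without overlap. Its effect was 1.45 ± 0.29 (limma adjusted p = 0.0040, 2.74-fold). The difference was largest on array 1, at 2.54, and smallest on array 3, at 0.51, where Tnf had its largest difference. Tnf and Tnfaip3 thus rose on the same 4 arrays by unequal amounts.

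Of the receptors, Tnfrsf1b passed the test and Tnfrsf1a did not, and both were higher on all 4 arrays. Tnfrsf1b was at 6.21, 5.96, 6.24 and 6.70 in APP/PS1 astrocytes, against 5.98, 4.96, 4.99 and 5.45 in WT astrocytes. Its effect was 0.93 ± 0.15 (limma adjusted p = 0.0012, 1.91-fold), and the within-array differences were 1.00 to 1.25 on arrays 2, 3 and 4 and 0.23 on array 1. Tnfrsf1a was at 12.05, 12.11, 11.99 and 12.02 in APP/PS1 astrocytes, against 11.87, 11.88, 11.86 and 11.88 in WT astrocytes. These groups did not overlap either, but the effect was small, 0.17 ± 0.07, and missed the threshold (adjusted p = 0.11, 95% interval 0.00 to 0.34).

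Among the subunits, Nfkb2 was at 8.33, 8.02, 7.32 and 7.94 in APP/PS1 astrocytes, against 7.48, 7.30, 6.78 and 7.46 in WT astrocytes. The ranges overlapped because array 3 was low in both genotypes, while the within-array differences were positive on all 4 arrays (0.48 to 0.84), as they were for 19% of genes. Its effect was 0.65 ± 0.13 (limma adjusted p = 0.0041), and it did not pass without the array block (adjusted p = 0.11). Relb was at 8.80, 8.61, 7.99 and 8.70 in APP/PS1 astrocytes, against 8.12, 7.91, 7.86 and 8.30 in WT astrocytes, an effect of 0.48 ± 0.15 (adjusted p = 0.034) that lost the call in 6 of 14 alternative settings with effects of 0.43 to 0.57. Its second probe gave 0.45. Rela was at 13.93, 14.12, 13.37 and 13.60 in APP/PS1 astrocytes, against 13.43, 13.45, 13.59 and 13.73 in WT astrocytes, with 2 arrays above and 2 below 0 and an effect of 0.21 ± 0.10 (adjusted p = 0.14).

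Tnfaip2 did not follow Tnf in astrocytes. It was at 8.14, 6.84, 7.24 and 6.96 in APP/PS1 astrocytes, against 7.19, 7.56, 7.48 and 7.36 in WT astrocytes. By this main probe only array 1 had a positive difference, 0.95, and the effect was -0.10 ± 0.23 (limma adjusted p = 0.77, 95% interval -0.62 to 0.41). Without array 1 the effect of the main probe was -0.48 (adjusted p = 0.052). The second probe gave 0.15 ± 0.22 (limma adjusted p = 0.65, over all probes), so the probes differed in sign and neither was called. It was higher in APP/PS1 astrocytes on array 1 (7.29 against 6.60) and array 3 (6.56 against 5.90), and lower on the other arrays.

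**Figure D2:**
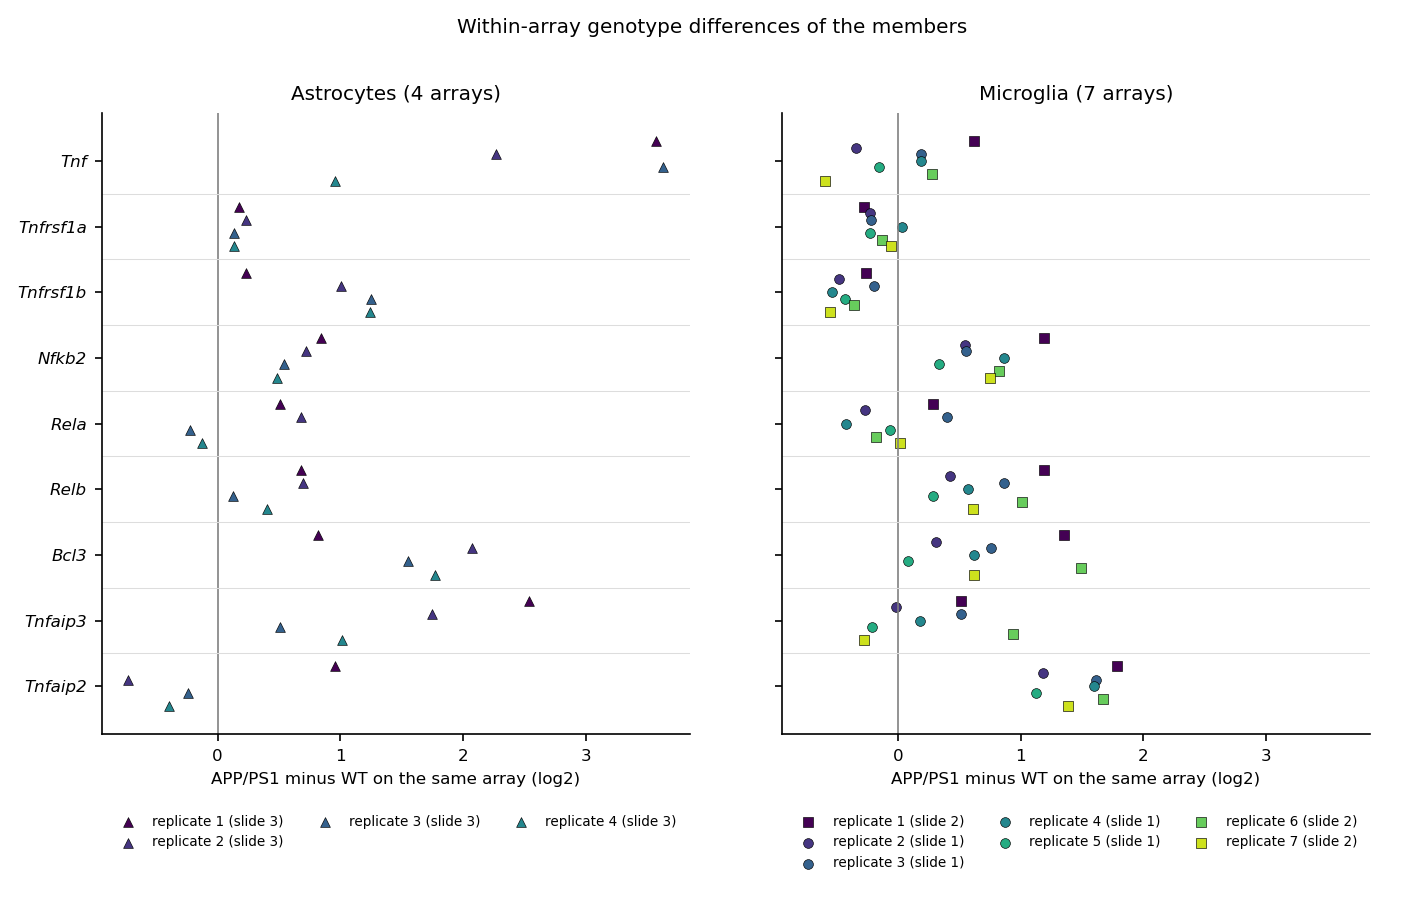
Within-array differences, APP/PS1 minus WT (log2, same horizontal axis in both panels), of each gene on the 4 astrocyte arrays (left) and the 7 microglia arrays (right), with one symbol shape per slide. Tnf lay at 0.95 to 3.63 on astrocyte arrays and on both sides of 0 on microglia arrays, whereas Tnfaip2 lay at 1.13 or above on all 7 microglia arrays.

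The same astrocyte samples also differed in marker genes of other cells. Over all genes 15.4% were called higher and 18% lower in APP/PS1 astrocytes. Of 14 measured microglia markers 12 were higher and 1 lower in APP/PS1 astrocytes, and the median difference by array was 3.42, 1.75, 1.92 and 0.60 for replicates 1 to 4. The summed level of the list ran from 13.66 to 15.62 in APP/PS1 astrocytes and from 13.54 to 14.56 in WT astrocytes, against 19.20 to 19.48 in APP/PS1 microglia and 19.55 to 19.76 in WT microglia. Itgam, which is in that sum, alone ran from 12.31 to 14.09 in APP/PS1 astrocytes and from 12.87 to 14.46 in WT astrocytes. Values on a log2 scale have no zero level, so no marker could be called absent. Endothelial markers were higher for 10 of 11 genes (median 0.28, 1.47, 0.92 and 1.89 by array) and mural markers for 7 of 9. In APP/PS1 astrocytes the summed levels had medians of 18.50 (endothelial) and 18.27 (mural), near the 18.05 of the astrocyte list. In WT astrocytes these medians were 17.32, 16.40 and 19.50. Of 12 markers of perivascular macrophages and monocytes 3 were higher, Cbr2 at 1.73, Stab1 at 1.02 and Pf4 at 1.23. The median difference of that list was 0.48, 0.66, 0.18 and 0.60 by array. Its summed level differed by -0.05, 1.57, 1.04 and 2.14, but that sum was nearly all Fn1, which was not called (limma adjusted p = 0.10). Fn1 had medians of 15.26 in APP/PS1 and 13.90 in WT astrocytes, beside 15.35 and 13.95 for the sum. In contrast, 15 of 16 astrocyte markers were lower and 1 higher, and 4 of 16 neuron markers were lower and 1 higher. In bulk RNA, more cells of a type and more RNA per cell cannot be told apart.

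Tnf and Tnfaip3 were lowest or next to lowest on array 4, where the microglia markers differed least by their median, and high on array 1, where they differed most. By its summed level the list differed by 2.08 on array 1 and by -0.07, 0.05 and 0.14 on arrays 2, 3 and 4, so array 4 was not the lowest by that measure. In WT astrocytes that sum lay close to the single gene Itgam, whose probe did not separate the cell types well. Itgam was lower in APP/PS1 astrocytes, at -0.59, so the sum says little about the other microglia markers. Bcl3 and Tnfrsf1b had their smallest differences on array 1 (0.82 and 0.23), where the microglia markers differed most and the endothelial markers least. On array 4 Bcl3 differed by 1.77, Tnfrsf1b by 1.24, Tnfaip3 by 1.01 and Tnf by 0.95. Without array 1 the effects were 2.28 for Tnf (limma adjusted p = 0.0058), 1.81 for Bcl3, 1.17 for Tnfrsf1b and 1.11 for Tnfaip3 (adjusted p = 0.021). The part of the microglial, perivascular, endothelial and mural markers in the differences was not tested.

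**Figure D3:**
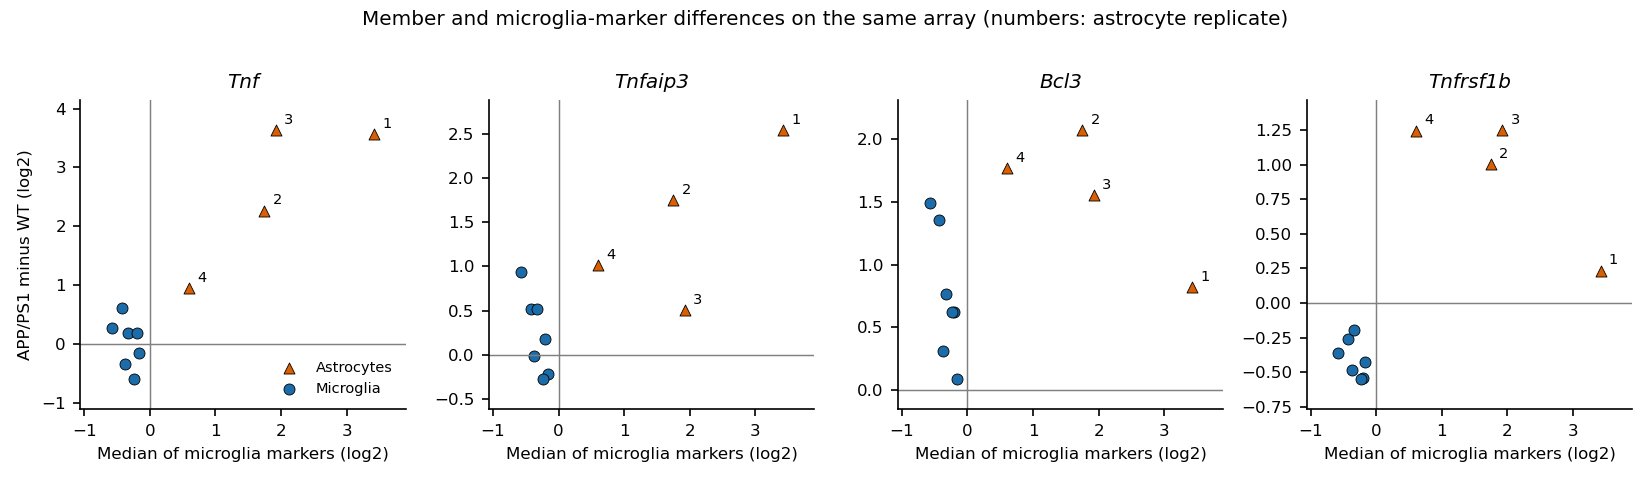
Difference of 4 genes (vertical, APP/PS1 minus WT, log2) against the median difference of 14 microglia markers on the same array (horizontal, log2), for 4 astrocyte arrays (triangles, numbered by replicate) and 7 microglia arrays (circles). Array 1 had the largest marker difference (3.42) with the largest Tnfaip3 difference (2.54) and the smallest Bcl3 and Tnfrsf1b differences of the astrocyte arrays (0.82 and 0.23).

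The third comparison asked how the genes differed between APP/PS1 and WT microglia. Tnfaip2, Nfkb2, Relb and Bcl3 were higher in APP/PS1 microglia, Tnfrsf1b was lower, and Tnf, Tnfaip3, Rela and Tnfrsf1a did not pass the test. In this comparison 19.7% of all genes were called, 8.27% higher and 11.4% lower. The median effect of the members was 0.21, against -0.04 over all genes. Among the measured members the rise thus lay in Nfkb2, Relb, Bcl3 and Tnfaip2, beside a Tnf level with no detected difference. Nfkb1 was not analysed, so the canonical and non-canonical branches were not compared.

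Tnfaip2 had the largest effect. It ran from 13.12 to 14.25 with a median of 13.60 in APP/PS1 microglia, and from 11.67 to 12.64 with a median of 12.18 in WT microglia. All 7 APP/PS1 samples lay above all 7 WT samples, as for 2.85% of genes measured in every microglia sample. The effect was 1.47 ± 0.18 (SE, limma adjusted p = 3.5e-04, 2.77-fold), and the second probe gave 1.64. The call held in each of 19 alternative settings, with effects of 1.38 to 1.59.

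Nfkb2 ran from 9.98 to 10.78 (median 10.64) in APP/PS1 microglia and from 9.25 to 10.15 (median 9.64) in WT microglia. Its effect was 0.72 ± 0.10 (limma adjusted p = 8.2e-04, 1.65-fold), with a positive difference on all 7 arrays, as for 11.3% of genes. Relb ran from 10.52 to 11.30 (median 11.15) in APP/PS1 microglia and from 9.85 to 10.72 (median 10.24) in WT microglia. Its effect was 0.69 ± 0.11 (adjusted p = 0.0023), with positive differences on all 7 arrays, and its second probe gave 0.69 as well. The ranges of the 2 genotypes overlapped for both genes, and both calls held in each of 19 alternative settings, the fit without the array block among them.

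Bcl3 ran from 10.61 to 11.77 (median 11.42) in APP/PS1 microglia and from 10.12 to 11.12 (median 10.53) in WT microglia, with an effect of 0.76 ± 0.19 (limma adjusted p = 0.021). The differences were positive on all 7 arrays but uneven. They were 1.35 and 1.49 on arrays 1 and 6 and 0.09 to 0.76 on the other five. Within slide 1 (arrays 2 to 5) the effect was 0.45 (adjusted p = 0.23) and within slide 2 (arrays 1, 6 and 7) it was 1.19 (adjusted p = 0.027), and the call was lost without array 1 (adjusted p = 0.054) or array 6 (0.070). Relb also had its largest differences on arrays 1 and 6, at 1.19 and 1.01, while Nfkb2 had 1.19 and 0.83 there. Within slides 1 and 2 the effects were 0.58 and 0.92 for Nfkb2, 0.54 and 0.91 for Relb and 1.38 and 1.59 for Tnfaip2, each past the threshold.

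Tnf was high in both genotypes. It ran from 14.27 to 15.27 (median 14.54) in APP/PS1 microglia and from 14.15 to 15.13 (median 14.65) in WT microglia, with 4 arrays above and 3 below 0. The effect was 0.01 ± 0.29 (limma adjusted p = 0.98, 95% interval -0.65 to 0.67), and the 10 probes gave -0.01 to 0.06. The largest value in the whole table was 17.89, so these samples lay below the top of the measured range. Tnfaip3 ran from 13.90 to 15.19 (median 14.59) in APP/PS1 microglia and from 13.95 to 15.12 (median 14.25) in WT microglia, with an effect of 0.21 ± 0.22 (adjusted p = 0.58, 95% interval -0.29 to 0.71), with 4 arrays above and 3 below 0. Rela ran from 13.35 to 14.22 (median 14.00) in APP/PS1 microglia and from 13.61 to 14.20 (median 13.93) in WT microglia, with an effect of -0.07 ± 0.08 (adjusted p = 0.57). None of these 3 genes separated the genotypes in microglia.

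Tnfrsf1b was lower in APP/PS1 microglia, running from 8.99 to 9.80 (median 9.31) there and from 9.48 to 10.16 (median 9.74) in WT microglia. The effect was -0.39 ± 0.11 (limma adjusted p = 0.037) and negative on all 7 arrays, as for 15.1% of genes. The call was lost in 9 of 19 alternative settings, among them the fits without array 1, 2, 4, 5, 6 or 7 (adjusted p 0.051 to 0.11). Tnfrsf1a ran from 12.27 to 12.75 (median 12.41) in APP/PS1 microglia and from 12.24 to 12.85 (median 12.62) in WT microglia, with an effect of -0.16 ± 0.06 (adjusted p = 0.086). Of its 11 probes, 10 gave -0.16 to -0.10, none of them past the threshold (adjusted p 0.093 to 0.25, over all probes). The dimmest probe, with a mean of 11.37 over all samples, gave 0.30 and was called higher (adjusted p = 0.013). It averaged 12.00 ± 0.24 in APP/PS1 microglia and 11.70 ± 0.27 in WT microglia (SD, n = 7 each), so the probes of this gene disagreed in direction.

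Markers of several cell types differed in the microglia samples as well. Over all genes 8.27% were called higher and 11.4% lower in APP/PS1 microglia. Of 14 microglia markers 2 were higher and 5 lower in APP/PS1 microglia, with median differences of -0.58 to -0.17 by array. Of 12 markers of perivascular macrophages and monocytes 7 were lower, and of 16 astrocyte markers 9 were lower and 1 higher. Of 16 neuron markers 8 were lower, with a median of -0.43 for the list. The summed perivascular list ran from 13.60 to 14.03 in APP/PS1 microglia and from 14.22 to 15.87 in WT microglia. Without array 3, which holds the WT sample with high S100a9, 5 members were called again, 4 higher and 1 lower. The part of these marker shifts in the members' differences was not tested.

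**Figure D4:**
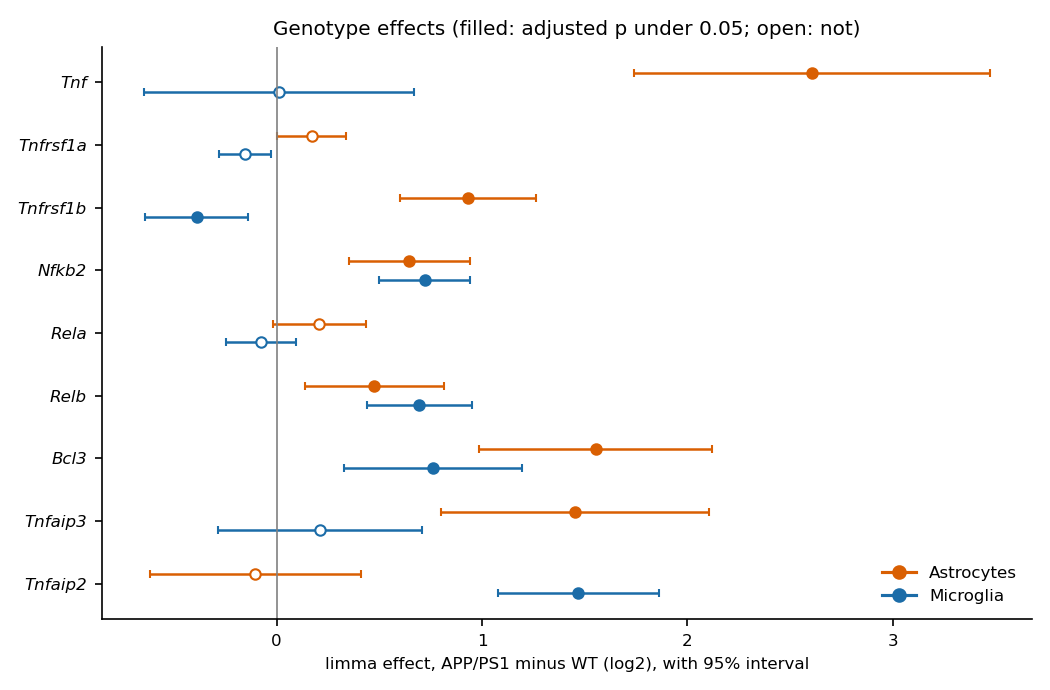
Effects of genotype (limma, APP/PS1 minus WT, log2) with 95% intervals, astrocytes above microglia for each gene, filled where adjusted p was under 0.05. Nfkb2, Relb and Bcl3 were filled and positive in both cell types, Tnfrsf1b was positive in astrocytes (0.93) and negative in microglia (-0.39), Tnf was filled in astrocytes (2.61) and Tnfaip2 in microglia (1.47).

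The difference between the genotype effects of the 2 cell types was itself tested. For 4 members the effect was more positive in astrocytes, for 1 it was more positive in microglia, and 26.6% of all genes were called. Tnf differed by 2.59 ± 0.49 (limma adjusted p = 0.0038) and Tnfrsf1b by 1.32 ± 0.19 (adjusted p = 8.6e-04). Tnfaip2 differed by -1.57 ± 0.29 (adjusted p = 0.0034). Tnfaip3 differed by 1.24 ± 0.37 (adjusted p = 0.032) and Tnfrsf1a by 0.33 ± 0.09 (adjusted p = 0.028), but both calls were lost in 8 of 20 alternative settings. Of the 11 Tnfrsf1a probes 8 were called more positive in astrocytes, while the dimmest gave -0.17 (limma adjusted p = 0.31, over all probes). For Nfkb2 the difference was -0.07 (95% interval -0.44 to 0.29) and for Relb -0.22 (-0.64 to 0.20), so no difference was detected within these bounds. For Bcl3 it was 0.79 (adjusted p = 0.097, interval 0.08 to 1.51), which passed in 3 of 20 settings.

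The rest of the pathway was described through lists of genes. Of 32 measured NF-kappaB target genes, 23 were higher and 2 lower in APP/PS1 astrocytes, a median of 1.16. They included Il1b, which encodes a main inflammatory cytokine, at 3.93 ± 0.38 (SE, limma adjusted p = 1.7e-04), the chemokine genes Ccl4 at 3.84 and Ccl3 at 2.51, and Ier3 at 1.52. In APP/PS1 microglia 11 of the 32 were higher (34.4%, beside 8.27% of all genes), a median of 0.30. The 4 with the smallest adjusted p were Il12b, which encodes a subunit shared by a pair of interleukins, at 3.73 ± 0.32 (adjusted p = 9.0e-05), Ptgs2, the inducible cyclooxygenase, at 3.27, the neutrophil chemokine gene Cxcl1 at 3.12 and the microglial growth factor gene Csf1 at 1.81. Several targets were called in both cell types, Il1b also in microglia (2.49, adjusted p = 3.1e-04) and Il12b, Ptgs2 and Cxcl1 also in astrocytes (2.25, 1.99 and 1.66). The difference between the 2 effects did not pass for Il1b (adjusted p = 0.052) or Il12b (adjusted p = 0.094). The astrocyte effect minus the microglia effect was called positive for 13 of the 32 targets and negative for 5, beside 13.4% and 13.2% of all genes, with Ccl4 at 3.92 (adjusted p = 8.6e-04) and Ptgs2 at -1.28 (adjusted p = 0.044). These counts ranged from 5 to 16 and from 2 to 6 over the alternative settings, with 5 positive in the fit without the replicate block and 8 without astrocyte array 1.

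Among the other subunit and IkappaB genes, 3 of 6 were higher and 2 lower in APP/PS1 astrocytes. Nfkbiz and Nfkbid, which encode nuclear IkappaB proteins as Bcl3 does, were higher at 1.42 ± 0.20 and 1.40 ± 0.32 (SE), and Nfkbia, the classical inhibitor, at 0.81 ± 0.19 (limma adjusted p = 0.0093). Rel, the c-Rel subunit, was called lower (adjusted p = 0.0073). In APP/PS1 microglia 2 of the 6 were higher, Nfkbie at 0.59 ± 0.14 (adjusted p = 0.013) and Rel over the 6 arrays where it was measured. Rel was dim, at 2.50 in APP/PS1 astrocytes and 3.50 in WT astrocytes, and at 4.32 in APP/PS1 microglia and 3.57 in WT microglia, around the median of 3.35 for probes blank on some arrays, so no size or direction is read from it. The shares were 50% higher and 33.3% lower in astrocytes and 33.3% higher in microglia, in a list of 6. Over all genes they were 15.4% higher and 18% lower in astrocytes and 8.27% higher in microglia.

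The TNF superfamily list held 35 measured genes beside the members, namely ligands, receptors and Adam17, the protease that sheds TNF from the cell surface. In APP/PS1 astrocytes 12 were higher and 4 lower (34.3% and 11.4% of the list, beside 15.4% and 18% of all genes). Adam17 was at 0.32 ± 0.11 (SE, limma adjusted p = 0.043), Ltb (lymphotoxin beta) at 2.03 ± 0.17 and Tnfrsf21 (death receptor 6) at 1.03 ± 0.20. Ngfr, the p75 neurotrophin receptor, was at -1.47 ± 0.10 (limma adjusted p = 7.0e-05). Tnfsf8 was called higher too, but it was dim, at 4.18 in APP/PS1 astrocytes and 3.16 in WT astrocytes. These values lie around the median of 3.35 for probes blank on some arrays, so no size or direction is read from them. In APP/PS1 microglia 4 were higher and 2 lower (11.4% and 5.71%, beside 8.27% and 11.4% of all genes), so these shares were near or below those of all genes. Tnfsf8 (CD30 ligand) had the largest effect, at 2.04 ± 0.14 (adjusted p = 1.2e-05), followed by Tnfsf9 (the ligand of 4-1BB) at 1.17 ± 0.24, Cd70 at 1.05 ± 0.19 and the death receptor gene Fas at 0.73 ± 0.15. Cd70 was dim in WT microglia, at 4.20.

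Of 24 receptor adaptors and IKK kinases, 8 were higher and 3 lower in APP/PS1 astrocytes (33.3% and 12.5%, beside 15.4% and 18% of all genes). The kinase gene Ikbkb was at 0.55 ± 0.10 (SE, limma adjusted p = 0.0022). Casp8 and Traf5 were higher in APP/PS1 astrocytes, at 1.27 ± 0.15 and 1.16 ± 0.13, and lower in APP/PS1 microglia, at -0.55 ± 0.11 and -0.47 ± 0.10. Tank, a TRAF-binding regulator, ran the other way, at -0.99 ± 0.12 in astrocytes and 0.55 ± 0.09 in microglia. In APP/PS1 microglia 2 of the 24 were higher and 6 lower (8.33% and 25%, beside 8.27% and 11.4% of all genes), among them Tab1 at -0.46 ± 0.10 (adjusted p = 0.0076). The share called higher there was near that of all genes. The test of the difference between the 2 genotype effects, astrocytes minus microglia, gave 1.82 for Casp8, 1.63 for Traf5 and -1.54 for Tank (limma adjusted p 1.3e-04 to 1.6e-04).

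Negative regulators formed a further list. Of 16 measured, 3 were higher and 1 lower in APP/PS1 astrocytes (18.8% of the list higher), Tax1bp1 (an A20 partner) at 0.64 ± 0.10 (SE), Zfp36, which destabilises Tnf mRNA, at 0.93 ± 0.15, Commd1 at 0.45 ± 0.10 and Traf4 at -1.42 ± 0.15 (limma adjusted p = 1.9e-04). In APP/PS1 microglia 2 were higher and 1 lower (12.5% higher), with the A20-binding protein gene Tnip1 at 0.40 ± 0.08 (adjusted p = 0.0070), Traf4 at 0.41 ± 0.11 and the ligase gene Itch at -0.34 ± 0.07. The shares called higher were near those of all genes in both cell types, and the shares called lower were below them.

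Immediate early genes, which also respond to tissue dissociation, moved in the same samples. Of 23 measured, 16 were higher in APP/PS1 astrocytes (69.6%, beside 15.4% of all genes), a median of 1.08, with Egr1 at 2.37 ± 0.25 and Fos at 2.21 ± 0.23 (SE, limma adjusted p = 2.1e-04 and 1.9e-04). In APP/PS1 microglia 7 were higher and 8 lower (30.4% and 34.8%, beside 8.27% and 11.4% of all genes), a median of -0.28, with Klf2 at -1.69 ± 0.18 (adjusted p = 1.6e-04) and Dusp5 at 1.27 ± 0.15. Over the alternative settings 10 to 18 were higher in astrocytes, and in microglia 1 to 7 were higher and 2 to 10 lower. The part of dissociation in the members' differences was not tested.

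**Figure D5:**
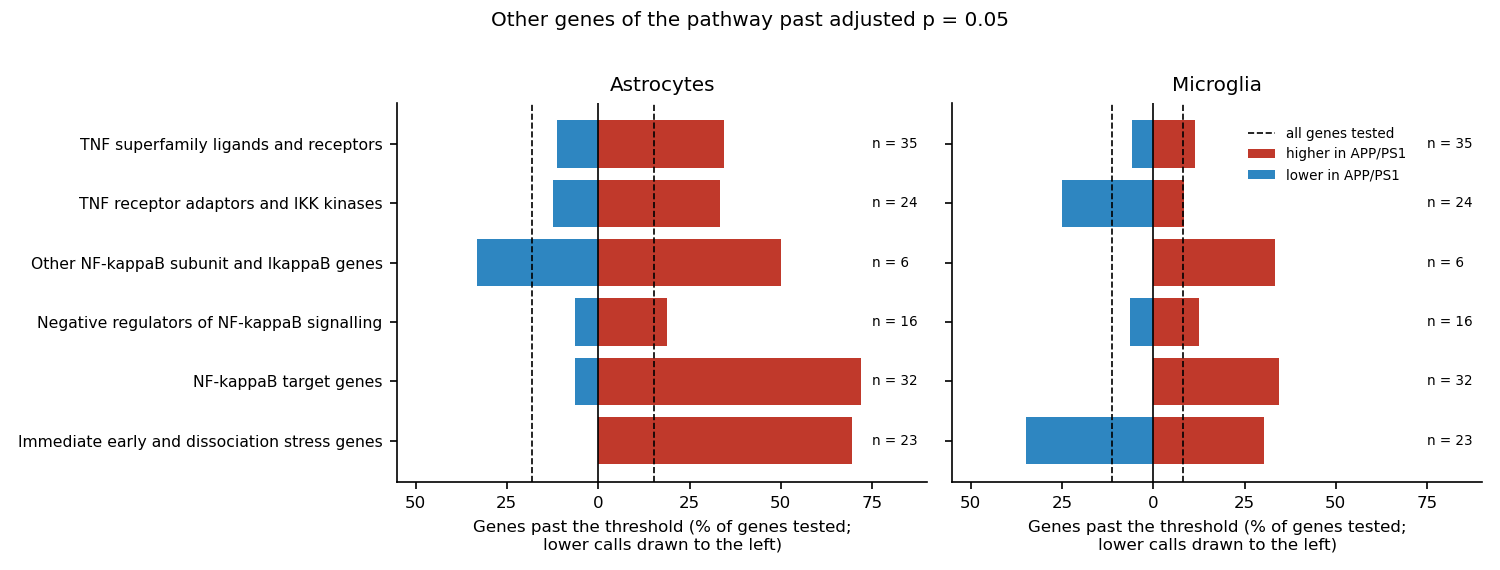
Share of the genes tested in each list that were called higher (right of 0) or lower (left of 0) in APP/PS1 than in WT astrocytes (left panel) and microglia (right panel), with dashed lines at the shares over all genes tested. NF-kappaB target genes were higher in 71.9% of the list in astrocytes and 34.4% in microglia, against 15.4% and 8.27% of all genes.

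The genes whose within-array differences were most like those of Tnf over the 11 arrays, among 16310 genes measured on all of them, were Ccl4 (Pearson r = 0.99), Cd33 (0.98), Rasal3 (0.97), Ebi3 (0.97) and Cd300c2 (0.97). These values describe 2 separate sets of arrays, since all 4 astrocyte arrays had Tnf differences above those of all 7 microglia arrays. Over the 7 microglia arrays alone r was 0.78 for Ccl4, 0.64 for Cd33, 0.62 for Rasal3, 0.31 for Ebi3 and -0.24 for Cd300c2. Ccl4, the chemokine MIP-1 beta, differed by 5.26, 3.47, 4.82 and 1.80 on astrocyte arrays 1 to 4, beside 3.57, 2.27, 3.63 and 0.95 for Tnf.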

How the data were processed

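Expression was measured on 2-colour arrays, with RNA labelled by an Agilent kit, per the labels. The authors deposited one log2 value per probe and sample. Per the submitters' processing notes limma was used. Its version and the steps of background correction and scaling are not given in the sources read for this account. The 22 columns had medians of 6.24 to 6.26 and quantiles within 0.205 of each other, so a shift of all genes could not be seen. Blanks numbered 151 to 593 on astrocyte arrays and 2249 to 10975 on microglia arrays, but no member's main probe was blank. Probe genes came from the platform annotation. 33026 probes named 1 gene and 9994 named none. Of the named probes 32438 matched RefSeq by gene ID, with 0 symbols changed.

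The brightest probe by mean stood for each gene. Genotype effects were fitted with limma 3.58.1 (R 4.3.3) over the 22 samples together. The model held dye, genotype nested in cell type, and the array as a fixed block. This gave the difference between the effects as well. WT astrocytes were set against WT microglia with array as a random block. The number that pairs samples marks a shared array, per the labels. Deviations of same-array samples correlated with a median r of 0.23 (0.00076 to 0.50) in astrocytes and 0.47 (0.37 to 0.63) in microglia. P-values were two-sided and adjusted over all genes by Benjamini-Hochberg (threshold 0.05). The fits were tested on simulated data. Replicates are biological per the labels. The number of arrays limits the precision. Values are bulk levels of hybridisation, and no read depth applies.

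Members and gene lists were chosen with earlier results of these data known. The genes named were mainly all members, up to 4 genes per pathway list and cell type by smallest adjusted p, fixed markers, and the 5 genes most correlated with Tnf. Named outside this rule were Adam17, Eif2s3y, the markers Cbr2 and Pf4, and targets followed from one cell type into the other. Genes with several probes may cross-hybridise or repeat one sequence, which was not checked. Alternatives were the fit without the block, with array as a random block, without dye, with cell types fitted alone, with quantile normalization, filters on dim or blank genes, other probe rules, within slides, on arrays matched in Eif2s3y (within 2 log2 units), and without each array.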

Additional observations from a re-analysis of the deposited data

Results flagged for a closer look

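Of 36 groups of 4 to 7 samples examined (9 genes in 4 groups), 1 held a sample far from the others, about what chance gives at 1 in 20. It was WT microglia replicate 4, with Tnfrsf1a at 12.24 beside 12.59 to 12.85 in the other WT microglia samples. Tnfrsf1a differed by 0.03 on that array, the only positive difference of the 7.

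The genotype effects of 5 members differed between the cell types by limma's test of the difference, astrocyte effect minus microglia effect. The difference was 2.59 for Tnf (adjusted p = 0.0038), 1.32 for Tnfrsf1b (adjusted p = 8.6e-04), 1.24 for Tnfaip3 (adjusted p = 0.032), 0.33 for Tnfrsf1a (adjusted p = 0.028) and -1.57 for Tnfaip2 (adjusted p = 0.0034). The calls for Tnfaip3 and Tnfrsf1a were each lost in 8 of 20 alternative settings, and the dimmest Tnfrsf1a probe gave -0.17. Tnfrsf1b was the member called in both cell types with opposite signs. It was positive on 4 of 4 astrocyte arrays and negative on 7 of 7 microglia arrays. In astrocytes the microglia markers also differed, by a median of 0.60 to 3.42 on the 4 arrays, and their part in these differences was not tested.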

How the results depend on the processing

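Read from its main probe or the mean of its probes, no member changed direction with a call under any alternative. The other probes taken singly were not among these alternatives. One of them, the dimmest Tnfrsf1a probe, was called higher in APP/PS1 microglia at 0.30, against -0.16 for the main probe. Of 648 member values under alternatives, 591 kept their side of the threshold, 51 lost the call and 6 gained it. Without the replicate block (array left out of the fit) 4 members passed in astrocytes, 3 in microglia (5 with it) and 2 for the difference between the effects (5 with it); the cause was not tested. Over all genes that fit called 2447 in astrocytes and 1184 in microglia, beside 7515 and 4404. With cell types fitted alone 4 members and 2854 genes passed in astrocytes. Within slide 1, 3 members passed in microglia. On arrays matched in Eif2s3y, 3 passed for the difference between the effects, 4 in astrocytes and 4 in microglia (fewer samples). The rule of 2 log2 units also left out microglia replicate 7, where Eif2s3y was low in both samples (4.17 in APP/PS1, 1.425 in WT).

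Leaving out single arrays gave 5 to 6 members in astrocytes, 3 to 5 in microglia (3 without replicate 1 or 6), 3 to 5 for the difference between the effects (3 without microglia replicate 2 or 5 or astrocyte replicate 2), and 8 to 9 for WT astrocytes against WT microglia, where Rela was the member lost. Target genes higher ranged from 16 to 23 in astrocytes and 7 to 13 in microglia over all settings. Dim values limit Tnf in WT astrocytes, where the probes of a sample spread most.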
